A study of Mus musculus with 3 samples.

Results

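Transcript levels of 38 genes of cholesterol and fatty acid synthesis were measured in mouse T-helper 1 (Th1) cells, the helper T cells that secrete interferon gamma. The genes were taken by name, and all 38 were found among the 50600 genes counted. They fall into 5 roles: 5 genes of SREBP control, 7 of the mevalonate steps, 11 of the sterol steps, 11 of the fatty acid steps, and 4 of sterol transport and the LXR response. The cells were primary Th1 cells of the strain C57BL/6NJ, given as 72 hours and sorted in the file headers, and no treatment, genotype or comparison group came with them. The 3 RNA libraries form 1 group of biological replicates with the same donor record, and age and sex are not known from the labels. The assay is labelled total RNA, whereas the library protocol linked to it is named for polyadenylated RNA, and the differentiation of CD4 T cells followed a linked protocol. With 1 group, the measurements describe levels and the spread between libraries, and nothing says that the libraries came from separate animals.

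Animal cells make cholesterol and fatty acids from acetyl-CoA in the cytosol. The SREBP transcription factors raise the genes of both routes. SREBP is held in the endoplasmic reticulum by SCAP and INSIG while sterols are plentiful, and SCAP carries it to the Golgi for release when they run low. Sterol surplus acts through LXR, a nuclear receptor for oxysterols that raises the efflux pumps. Activated T cells are known to turn on SREBP-driven lipid synthesis as they grow and divide.

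The libraries held 4482916, 266790 and 3733531 counts in replicates 1, 2 and 3. The 38 genes took 15255, 811 and 8556 of these, which is 0.34%, 0.304% and 0.229%. Replicate 2 was 16.8-fold shallower than replicate 1, and 18 of the 38 genes had fewer than 10 counts in it. The Th1 markers Cd3e, Cd4, Tbx21, Ifng and Lta were all present, with summed levels of 3019, 2804 and 1553 TPM (transcript abundance scaled by gene length and library). Most of that sum was Lta and Ifng, whereas Cd3e had 34.2, 1.9 and 18.9 TPM from 292, 1 and 157 counts. Of 4 markers each of adipocytes and hepatocytes, cells that also make lipid, 3 and 4 had no count in any library. Their summed level was at most 0.103 TPM. The B-cell gene Ms4a1, the macrophage genes Lyz2 and Adgre1 and the CD8 gene Cd8a had no count either. Cd79a, Cd68 and Cd8b1 were above 1 TPM on average, at 8.23 ± 4, 12.7 ± 5.15 and 2.28 ± 2.26 TPM (SD, n = 3 libraries), and their part in the levels given here was not tested. In bulk RNA, fewer cells of a type and less RNA per cell cannot be told apart.

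The promoter windows of the genes are shown first, because SREBP and LXR act through short words in such DNA. RefSeq windows on GRCm38.p6, reaching 250 bases before to 50 bases after a start site, were at hand for 30 of the 38 genes. Fdps, Fdft1, Sqle, Scd1, Scd2, Fads1, Stard4 and Abcg1 had no window and were not searched. Each window was searched on both strands for TCACCCCAC and TCACNCCAC (sterol response words read by SREBP), CACGTG (the E-box, also read by SREBP), CCAAT (read by NF-Y), GGGCGG (the GC box, read by SP factors) and an LXR-type word, GGTCA followed after 5 bases by a second GGTCA on the same strand. The word CCAAT was in 23 of the 30 genes (76.7%), against 41.1% of 27025 genes with a window and 43.1% of 8272 detected protein-coding genes. GGGCGG was in 24 (80%), against 38.2% of all genes and 69.6% of detected ones. CACGTG was in 7 (23.3%), namely Scap, Insig1, Hsd17b7, Sc5d, Dhcr7, Elovl5 and Abca1, against 8.09% and 11.9%. Either sterol response word was in 1 (3.33%), Hmgcs1, against 0.614% of all genes and 0.665% of detected ones for TCACCCCAC, and 1.44% and 1.35% for TCACNCCAC. The LXR-type word was in 0 of 30, against 0.0851% of all genes. These shares describe letters in a window and were not tested.

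The windows below hold 4 or more copies of CCAAT, and Fasn was added as the fatty acid gene with most copies. CCAAT on the printed strand and ATTGG, its reverse complement, stand in capitals, as does the sterol response word. Each sequence runs from 5′ to 3′ on the strand of its gene.
Hmgcs1: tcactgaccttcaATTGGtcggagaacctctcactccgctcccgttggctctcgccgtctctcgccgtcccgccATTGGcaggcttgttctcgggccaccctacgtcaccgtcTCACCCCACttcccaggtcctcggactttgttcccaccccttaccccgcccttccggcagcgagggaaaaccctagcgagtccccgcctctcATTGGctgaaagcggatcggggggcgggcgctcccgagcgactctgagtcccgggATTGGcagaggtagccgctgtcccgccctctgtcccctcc
Mvk: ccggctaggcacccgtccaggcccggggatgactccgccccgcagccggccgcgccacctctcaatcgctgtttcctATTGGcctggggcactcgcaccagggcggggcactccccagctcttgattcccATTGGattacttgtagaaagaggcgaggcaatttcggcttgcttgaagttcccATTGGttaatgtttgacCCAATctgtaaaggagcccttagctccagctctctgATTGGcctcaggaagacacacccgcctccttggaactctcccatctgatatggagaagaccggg
Nsdhl: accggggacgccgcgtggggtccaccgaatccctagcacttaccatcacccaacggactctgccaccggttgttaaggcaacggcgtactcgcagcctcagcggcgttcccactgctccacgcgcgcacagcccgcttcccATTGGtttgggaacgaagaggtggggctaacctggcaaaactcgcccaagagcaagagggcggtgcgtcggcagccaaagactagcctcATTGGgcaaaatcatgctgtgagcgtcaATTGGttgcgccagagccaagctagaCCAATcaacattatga
Fasn: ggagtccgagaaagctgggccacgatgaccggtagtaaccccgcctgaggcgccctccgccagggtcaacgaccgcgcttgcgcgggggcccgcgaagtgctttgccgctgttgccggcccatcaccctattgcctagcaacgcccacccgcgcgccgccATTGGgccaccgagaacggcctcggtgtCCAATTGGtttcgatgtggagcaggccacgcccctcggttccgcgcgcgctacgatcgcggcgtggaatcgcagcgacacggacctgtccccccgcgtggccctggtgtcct
The Hmgcs1 window lies at chr13:119690101-119690400 on the plus strand, with TCACCCCAC 137 bases before the start site and 4 copies of CCAAT, 3 of them before the start site and 1 after it. Mvk (chr5:114444019-114444318, plus strand) holds 5 copies, all before the start site. Nsdhl (chrX:72918271-72918570, plus strand) holds 4, of which the last 2 lie 8 and 34 bases after the start site. Fasn (chr11:120824498-120824797, minus strand) holds 3, and the pair at 62 and 59 bases before the start site shares 2 bases on opposite strands.

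All 38 genes averaged at least 1 TPM, a level that 47.8% of the 21764 protein-coding genes reached. At least 10 TPM was reached by 28 of the 38, against 27.3% of protein-coding genes. The median of the 38 genes was 20.3 TPM, against a median of 12.8 TPM over the protein-coding genes detected at 1 TPM. The genes were chosen with earlier results of these data known, so these shares and medians describe this list only. Mean levels spanned 203-fold, with Scd2 at the top and Abca1 at the bottom. The span was 319-fold without replicate 1 and 133-fold without replicate 2, in which Abca1 had 0 counts. Ordered by mean, the ranges of the 3 libraries overlapped in 35 of 37 neighbouring pairs. They were apart between Scd2 and Acly and between Elovl1 and Stard4. Within libraries, the higher of the neighbours was higher in all 3 libraries in 6 of the 37 pairs, among them Acly over Hmgcs1.

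**Figure D1:**
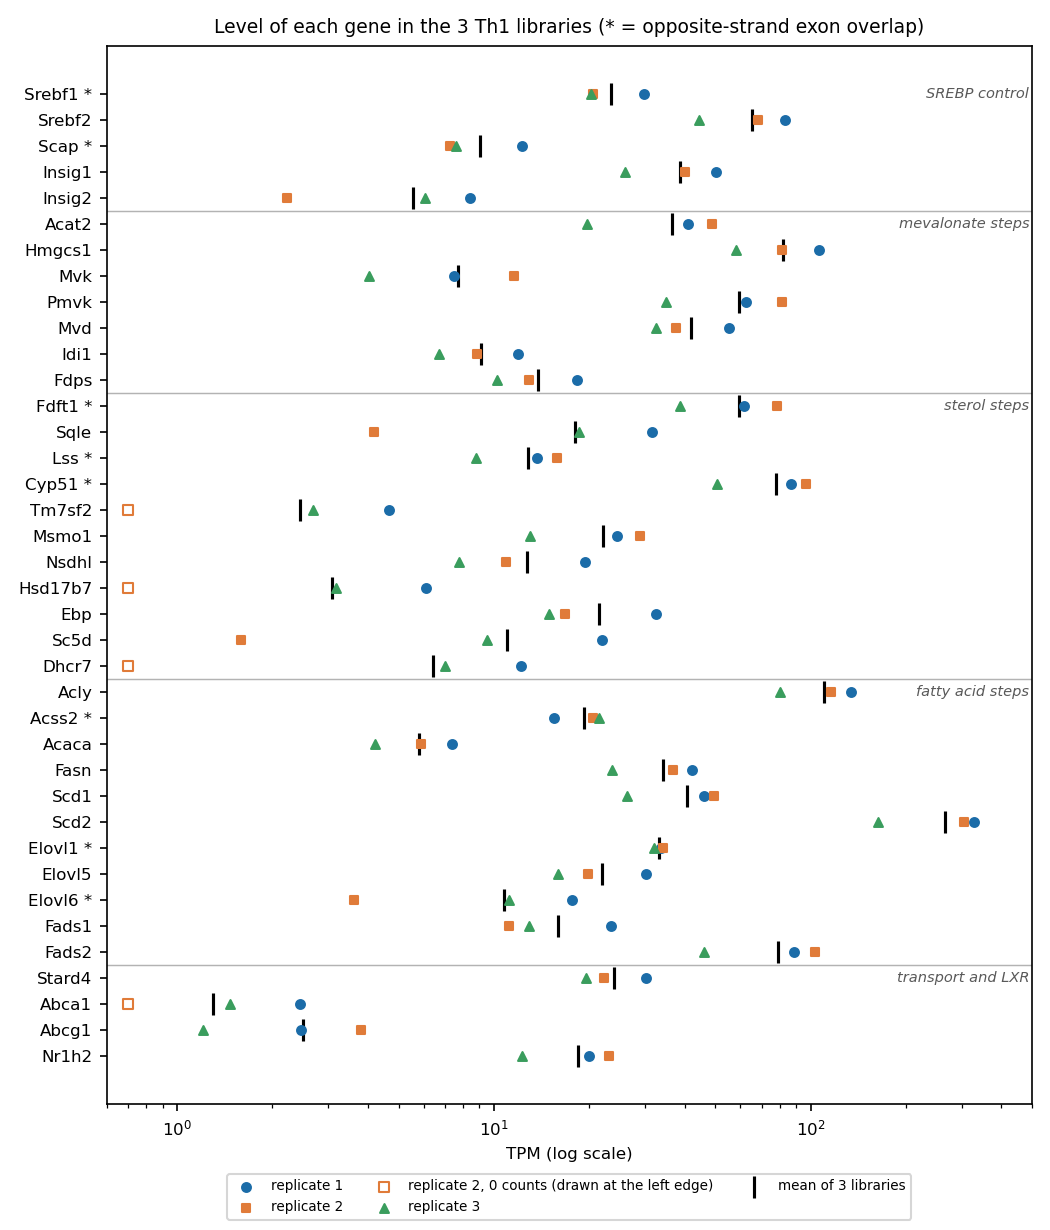
Level of each of the 38 genes in TPM on a log axis, by role, with 1 point per library and a bar at the mean of the 3 libraries; open squares mark 0 counts in replicate 2 and an asterisk marks an exon overlap with a gene on the other strand. Scd2 lies highest at 163 to 327 TPM, replicate 3 is lowest for most genes, and the open squares belong to Tm7sf2, Hsd17b7, Dhcr7 and Abca1.

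Of the SREBP control genes, transcripts of Srebf2 and Insig1 were more abundant in TPM than those of Srebf1 and Insig2. Protein was not measured. Srebf2, which encodes SREBP-2, the driver of cholesterol synthesis genes, stood at 83.3, 68.3 and 44.5 TPM in replicates 1, 2 and 3. Srebf1, which encodes SREBP-1, the driver of fatty acid synthesis genes, stood at 29.7, 20.6 and 20.3 TPM. It overlaps Rai1 on the other strand over 1.93% of its exon length, and Rai1 had 257, 19 and 201 counts. Srebf2 was higher than Srebf1 in 3 of 3 libraries, with no overlap of their values, by a log2 ratio of 1.41 ± 0.30 (SD, n = 3). All such ratios are of TPM + 1 within a library. A two-sided exact sign-flip permutation test of 1 ratio cannot go below p = 0.25 with 3 libraries, which was the value here.

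Insig1 and Insig2 encode the anchors that keep SCAP and SREBP in the endoplasmic reticulum. Insig1 had 50.4, 40 and 25.9 TPM. Insig2 had 8.4, 2.23 and 6.08 TPM, the middle value resting on 1 count. The log2 ratio of Insig1 to Insig2 was 2.68 ± 0.89 over the 3 libraries and 2.19 without replicate 2. Scap, the escort of SREBP, had 12.3, 7.28 and 7.59 TPM. Scap shares 985 bases of exon, 13.2% of its exon length, with 5830462I19Rik on the other strand, which had 1063, 70 and 1627 counts against 191, 7 and 115 for Scap. At gene level, fragments from such a stretch cannot be assigned beyond the strand on which they were counted, and no source used here states which strand the kit keeps.

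The mevalonate steps run from acetyl-CoA to farnesyl diphosphate, and their 7 genes had a median of 36.4 TPM. Their summed level was 303, 282 and 166 TPM. Acat2, the cytosolic thiolase that joins acetyl-CoA units, had 41, 48.7 and 19.7 TPM. Hmgcs1, the cytosolic HMG-CoA synthase and the gene with the sterol response word shown above, had 106, 81.4 and 58.3 TPM and was the highest of the 7 on average.

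The kinases Mvk and Pmvk, which phosphorylate mevalonate in turn, differed in level. Mvk had 7.51, 11.6 and 4.04 TPM, resting on 42, 4 and 22 counts. Pmvk had 62.5, 81.3 and 35 TPM, above Mvk in every library. Mvd, the decarboxylase that follows, averaged 41.8 ± 12 TPM. Idi1, the isomerase of the resulting isoprene unit, averaged 9.14 ± 2.59 TPM, and Fdps, the farnesyl diphosphate synthase, 13.8 ± 4.15 TPM (SD, n = 3 each). The ranges of Mvk, Idi1 and Fdps overlapped one another.

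Several of these genes share sequence with other loci. Among stretches of 50 bases in the transcripts of Acat2, 39.1% also occur in transcripts of genes elsewhere, most often Acat3. The share was 30.4% for Acaca, 25.3% for Idi1, 15.5% for Fdps, 11.6% for Hmgcs1 and 9.38% for Fdft1, and below 5% for each of the other 32 genes. The headers give no option for fragments that map to several places, so the levels of these 6 genes are less certain. Acat1, the mitochondrial thiolase, had 44.4 ± 16.7 TPM, and the log2 ratio of Acat2 to Acat1 was -0.61, 0.31 and -0.63, lower in 2 of 3 libraries (mean -0.31 ± 0.54, exact sign-flip p = 0.5).

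The sterol steps turn farnesyl diphosphate into squalene, lanosterol and cholesterol, and their 11 genes spanned 31.8-fold with a median of 12.8 TPM. The span was 55-fold without replicate 1 and 18.7-fold without replicate 2, in which the lowest gene, Tm7sf2, had 0 counts. Cyp51, the lanosterol demethylase, was the highest with 86.5, 96.4 and 50.8 TPM. Fdft1, the squalene synthase that commits farnesyl diphosphate to sterols, had 61.4, 78.5 and 38.6 TPM. Both overlap a gene on the other strand, Cyp51 over 3.76% of its exon length with Akap9 and Fdft1 over 26.8% with Ctsb. Lss, the lanosterol synthase, averaged 12.8 ± 3.59 TPM and overlaps the antisense gene 4930483K19Rik over 3.53% of its length. That gene had 671, 40 and 1132 counts, more than the 309, 22 and 193 of Lss.

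Sqle, the squalene epoxidase and a control point of the route, had 31.6, 4.19 and 18.6 TPM. Those levels rest on 366, 3 and 210 counts, so the low value is that of the shallow library, with a 95% exact Poisson interval of 0.863 to 12.2 TPM. Its mean was 18.1 ± 13.7 TPM with all libraries and 25.1 TPM without replicate 2. Sc5d, the sterol desaturase, showed the same order with 21.9, 1.59 and 9.49 TPM from 223, 1 and 94 counts. Dhcr7, which makes cholesterol in the last step of one branch, had 12.2, 0 and 7.01 TPM. Its 0 counts in replicate 2 allow up to 4.91 TPM (95% exact Poisson interval).

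Other enzymes of the sterol steps stood lower than Cyp51 and Fdft1. Msmo1, the methylsterol oxidase, averaged 22.1 ± 8.21 TPM. Nsdhl, the decarboxylating dehydrogenase whose window is printed above, had 19.4, 10.9 and 7.75 TPM. Hsd17b7, the ketosteroid reductase of that cycle, had 6.09, 0 and 3.17 TPM from 65, 0 and 33 counts. Ebp, the isomerase, averaged 21.4 ± 9.68 TPM. Tm7sf2, a sterol reductase, was the lowest of the 11 with 4.67, 0 and 2.68 TPM from 34, 0 and 19 counts. In replicate 2, 0 counts of Tm7sf2 allow up to 8.19 TPM, above its level in the deeper libraries. A loss there was not detectable at this depth.

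The 11 genes of the fatty acid steps took the most transcripts, with summed levels of 765, 705 and 437 TPM and a median of 33.3 TPM. Acly, which splits citrate to cytosolic acetyl-CoA, had 134, 116 and 79.8 TPM. Acss2, which makes acetyl-CoA from acetate, had 15.5, 20.6 and 21.5 TPM. In contrast to the other genes of the list, Acss2 was higher in TPM in replicate 3 than in replicate 1. On TMM-scaled counts, Elovl1 and Insig2 were also highest in replicate 3. Acss2 overlaps Ggt7, Acss2os and Gss on the other strand over 9.12% of its exon length, and Acss2os had 102, 14 and 176 counts. Acss1, the mitochondrial form, had 11 counts in all, and Acss2 was 29.7-fold higher per length (95% counting interval 16.5 to 59.6).

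Acaca, the acetyl-CoA carboxylase of fatty acid synthesis, was the lowest of the 11 with 7.37, 5.89 and 4.2 TPM. Those levels rest on 263, 13 and 146 counts over 17074 annotated exon bases, and the rank depends on that length. Acacb, its mitochondrial-membrane counterpart, had 7 counts in all, which puts Acaca 34-fold higher per length (95% counting interval 16.4 to 85.1). Without replicate 1, which held 6 of the 7 counts, the ratio was 89.7-fold (15.9 to 3565). Fasn, the fatty acid synthase, had 42.1, 36.8 and 23.6 TPM, above Acaca in every library. Fasn lay at the 74.9th percentile of detected protein-coding genes and Acaca at the 29th.

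Desaturases held the highest level of the list. Scd2 had 327, 305 and 163 TPM from 3729, 215 and 1815 counts, at the 97.1st percentile of detected protein-coding genes. Scd1, another stearoyl-CoA desaturase, had 46, 49.6 and 26.4 TPM. The log2 ratio of Scd2 to Scd1 was 2.80, 2.60 and 2.59, with the smallest spread of the 11 pairs examined (2.66 ± 0.12, SD, n = 3). Of the stretches of 50 bases, 3.75% of those of Scd2 and 4.56% of those of Scd1 occur at another locus. Fads2, the delta-6 desaturase of polyunsaturated fatty acids, had 88.5, 103 and 46.2 TPM, and Fads1, the delta-5 desaturase, 23.5, 11.2 and 12.9 TPM. Fads2 exceeded Fads1 in every library, by a log2 ratio of 2.24 ± 0.74. Their exon lengths were 1508 and 3456 bases, and in counts Fads2 had 279, 20 and 142 against 170, 5 and 91.

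Elongases add carbon units to long fatty acids. Elovl1, which acts on saturated and monounsaturated very long chains, had 33.7, 34.1 and 32.1 TPM, the narrowest relative spread of the 38 genes in TPM, and overlaps Cdc20 on the other strand over 1.94% of its exon length. On TMM-scaled counts its highest and lowest library differed by a ratio of 1.32, wider than for Acly at 1.21 or Fasn at 1.29. Elovl5, which acts on polyunsaturated chains, had 22 ± 7.44 TPM. Elovl6, which elongates palmitate, had 17.7, 3.61 and 11.2 TPM from 238, 3 and 147 counts. Elovl1 exceeded Elovl6 in every library, by a log2 ratio of 1.75 ± 1.05, and by 1.16 without replicate 2. The log2 ratio of Elovl5 to Elovl6 was 1.13 ± 0.92, and 0.60 without replicate 2.

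**Figure D2:**
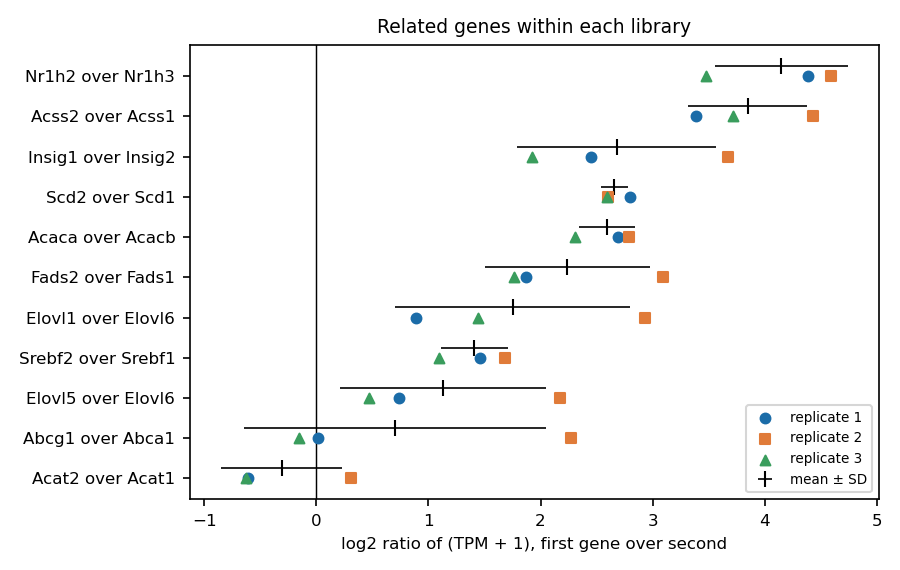
Log2 ratio of TPM + 1 within each library for 11 pairs of related genes, first gene over second, with 1 point per library and a bar for the mean and SD of 3 libraries. In 9 pairs all 3 points lie above 0, and the points of Abcg1 over Abca1 and of Acat2 over Acat1 lie on both sides of 0.

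The 4 genes of transport and the LXR response had a median of 10.5 TPM, the lowest of the 5 roles by mean level, and summed levels of 55.2, 49.1 and 34.5 TPM. In replicate 2 their median was 13 TPM, above the 10.9 TPM of the sterol steps. Nr1h2, which encodes LXR-beta, had 20, 23.1 and 12.3 TPM. Nr1h3, which encodes LXR-alpha, had 1 count in all, so that Nr1h2 was 175-fold higher per length with a 95% counting interval of 31.2 to 6960. Without replicate 1 the ratio was 70.5-fold (12.3 to 2813). Without replicate 3, which held the 1 count, it was at least 30.1-fold by the 95% counting interval. Stard4, a carrier of sterols inside the cell, averaged 24 ± 5.62 TPM.

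Abca1 and Abcg1, the efflux pumps that LXR raises, were the bottom and the third-lowest gene of the list. Abca1 had 2.45, 0 and 1.47 TPM from 53, 0 and 31 counts. Abcg1 had 2.47, 3.81 and 1.21 TPM from 21, 2 and 10 counts. Their log2 ratio, Abcg1 to Abca1, was 0.01, 2.27 and -0.16, so the mean of 0.70 ± 1.35 rested on the shallow library (exact sign-flip p = 0.75). It was -0.08 without replicate 2, and no order of the pumps was detectable.

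Of 48 further genes of these routes, 33 averaged at least 1 TPM and 20 at least 10 TPM. Their median was 5.79 TPM, against 20.3 TPM for the 38 genes. Among 18 other sterol genes, 16 reached 1 TPM. The highest were Npc2, which binds cholesterol in lysosomes, at 101 ± 33.3 TPM, and Tmem97, the endoplasmic reticulum protein known as the sigma-2 receptor, at 64.7 ± 15.7 TPM. Acat1 followed, then Nus1, a subunit of the dolichol-making prenyltransferase, at 37.2 ± 15.9 TPM and Lbr, a nuclear envelope sterol reductase, at 31.6 ± 13.2 TPM. Ch25h, the cholesterol hydroxylase, had no count.

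Among 24 other fatty acid genes, 14 reached 1 TPM. Acsl5, an acyl-CoA synthetase, had 156 ± 62.9 TPM and Acsl4, its paralogue for polyunsaturated chains, 46.3 ± 11.5 TPM. Tecr and Hsd17b12, which act in each round of elongation, had 50.8 ± 19.2 and 46.7 ± 21.6 TPM. Slc25a1, the citrate exporter of mitochondria, had 40.8 ± 20.1 TPM. Elovl2, Elovl3 and Scd4 had no count. Of 6 other LXR genes, 3 reached 1 TPM: Rxrb and Rxra, the partner receptors, at 24.6 ± 5.97 and 8.96 ± 2.66 TPM, and Vldlr, a lipoprotein receptor, at 1.01 ± 1.02 TPM. Mylip, an LXR target, stood at 0.473 ± 0.469 TPM, and Abcg4 had no count. All these means are over 3 libraries with the SD.

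Across libraries, the order of the 38 genes was kept in broad terms only, since 6 of 37 neighbouring pairs held theirs in all 3 libraries. Spearman's rho of their levels was 0.968 for replicates 1 and 3, 0.906 for replicates 1 and 2, and 0.918 for replicates 2 and 3, across genes that share libraries and depth, as a description. Over the 30 genes with no exon overlap on the other strand it was 0.993 between replicates 1 and 3.

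In TPM, the levels of replicate 3 were below those of replicate 1 in 37 of the 38 genes. All 30 genes without overlap were lower, by log2 differences of TPM from -1.33 (Nsdhl) to -0.47 (Insig2) and a median of -0.86. Over 6932 genes without overlap the same median was -0.77. The 30 differences had an SD of 0.17, against 0.49 over the 6932 genes, which include many of lower count. Of the 8 overlapped genes, 7 were lower, with a median of -0.65 against -0.03 over 4662 overlapped genes.

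The share of counts in genes with an opposite-strand overlap was 66.5% in replicate 3, against 51.7% in replicate 1 and 55.1% in replicate 2. Scaled over genes without overlap alone, 28 of the 30 genes were lower in replicate 3 than in replicate 1 and 2 were higher, with a median of -0.20 against -0.12 over all such genes. On that scale the summed mevalonate genes stood at 771, 763 and 667 TPM, the 8 fatty acid genes without overlap at 1780, 1749 and 1493 TPM, and the transport and LXR genes at 141, 133 and 138 TPM. The 8 sterol genes without overlap stood at 390, 169 and 307 TPM, lowest in replicate 2. Sqle went from 80.5 in replicate 1 to 11.3 in replicate 2, and Sc5d from 55.9 to 4.3, on 3 and 1 counts there. Msmo1 alone of the 8 stood higher in replicate 2 than in replicate 1, at 78.3 against 62.1. In TPM over all genes, the 11 sterol genes summed to 314, 253 and 175, lowest in replicate 3. Cyp51, Fdft1 and Lss, the 3 with overlap, were each highest in replicate 2 in TPM. The part of the overlap share in the levels of single genes was not tested.

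**Figure D3:**
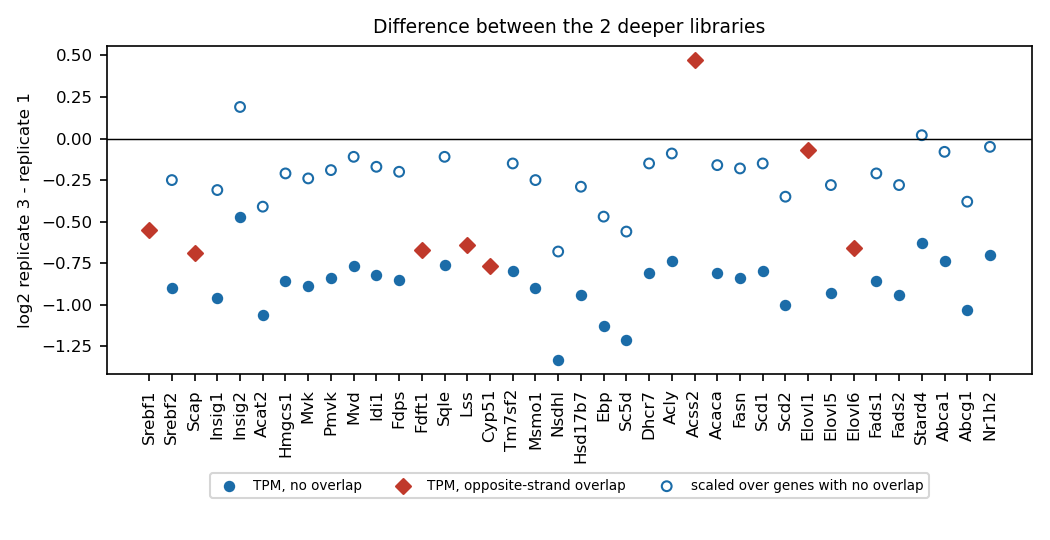
Log2 difference of replicate 3 minus replicate 1 for each of the 38 genes, as TPM (filled circles without overlap, diamonds with opposite-strand overlap) and scaled over genes without overlap (open circles). The filled circles lie between -1.33 and -0.47, the open ones between -0.68 and 0.19, and the diamond of Acss2 alone lies clearly above 0, at 0.47.

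Counts were then compared between the 3 libraries gene by gene with a chi-square test, which holds counting error only and compares these libraries, not conditions. Over 11595 genes with a mean count of at least 10, 29.5% passed a Benjamini-Hochberg adjusted p under 0.05 and also differed at least 2-fold between the highest and the lowest library. Of the 38 genes, 4 passed: Sqle, Sc5d, Dhcr7 and Elovl6. All 4 were lowest in replicate 2, and 14.7% of all tested genes were called with replicate 2 lowest. In all 4, replicate 1 was the highest library. The other 34 did not pass, and the share of the 38 was below that of all genes.

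Sqle had 3 counts in replicate 2 where 19.9 were expected from its total, a ratio of replicate 1 to replicate 2 of 7.38 with a 95% counting interval of 2.5 to 35.9 (chi-square, adjusted p = 0.000132). Sc5d had 1 count where 10.9 were expected, a ratio of 13.5 (2.4 to 535; chi-square, adjusted p = 4.95e-06). With replicate 2 taken at 3 counts, as in the test, its ratio was 4.49. Dhcr7 had 0 counts where 7.96 were expected (chi-square, adjusted p = 0.00862). It was at least 2.41-fold lower than in replicate 1 by the 95% counting interval, and 3-fold with replicate 2 taken at 3 counts. Elovl6 had 3 counts where 13.3 were expected, a ratio of 4.8 (1.62 to 23.4, adjusted p = 0.016). Each of these calls rests on at most 3 counts of the shallow library, and none of the 4 was called without it.

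**Figure D4:**
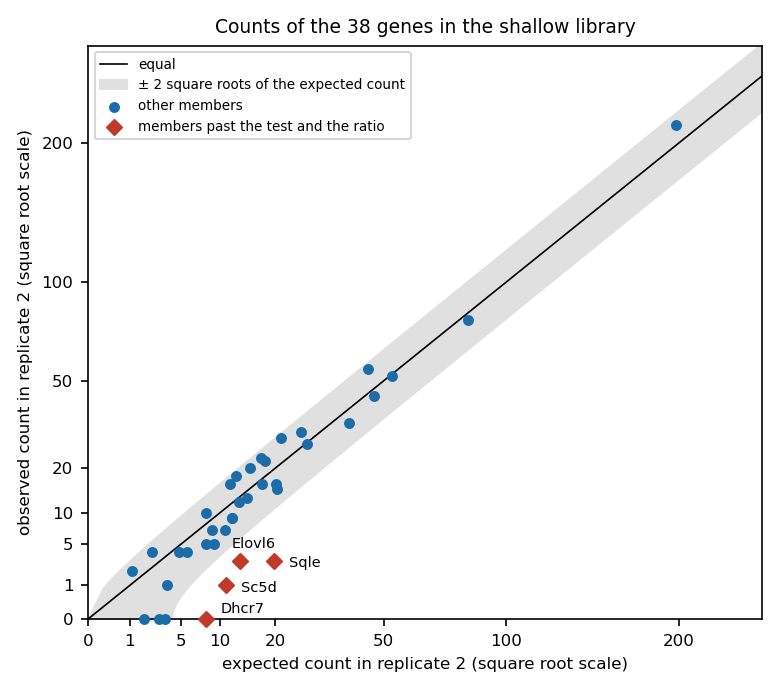
Observed against expected count in replicate 2 for the 38 genes, on square root axes, where the expected count is the gene's total shared out by scaled library size and the grey band is 2 square roots of it on either side. Sqle, Sc5d, Dhcr7 and Elovl6 (diamonds) lie below the band at 3, 1, 0 and 3 counts, and the other 34 genes lie within it.

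Among genes without overlap, scaled over these genes, 15.5% of 6933 were called and 6.19% with replicate 2 lowest. Of the 30 genes of the list, 3 were called and all 3 with replicate 2 lowest: Sqle (adjusted p = 0.00268), Sc5d (adjusted p = 0.00101) and Dhcr7 (adjusted p = 0.046). By role, these were 3 of the 8 sterol genes. None was called of the 3 SREBP control, 7 mevalonate, 8 fatty acid and 4 transport and LXR genes. The fatty acid gene Elovl6, called over all genes, was not in this set because 34 bases, 0.529% of its exon length, overlap Gm35986 on the other strand. Whether the roles differ in this was not tested.

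With no minimum ratio, 21 of the 38 genes passed, against 55.5% of all tested genes. Replicate 3 was lowest in 13 of these, replicate 2 in 6 and replicate 1 in 2. Among genes without overlap, 4 of 30 passed, against 26.4%. The fourth was Scd2, at 834, 825 and 655 TPM on the scale of these genes, lowest in replicate 3 by a ratio of 1.23 (chi-square, adjusted p = 1.72e-10). Of the 48 further genes of these routes, 32 had the counts to be tested and 10 were called with the ratio of 2, against 29.5% of all tested genes, and 5 of 28 among those without overlap, against 15.5%.

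Relative to the other libraries, the median gene of the 38 stood 0.33 log2 units higher in replicate 1, against 0.21 higher for all tested genes. In replicate 2 the median was -0.15, against -0.31 for all tested genes. In replicate 3 it was -0.19, against 0.18 for all tested genes. Over genes without overlap the median of the 30 was 0.24, -0.27 and 0.02 in replicates 1, 2 and 3, against 0.22, -0.33 and 0.16 for all such genes. In replicate 3 the sign thus turned where the 8 overlapped genes were left out and the scaling was restricted to genes without overlap, both changed together.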

How the data were processed

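RNA of 3 Th1 libraries was analysed as 1 group. The authors deposited raw fragment counts by gene, with a file for each library. Per the file headers they were made with featureCounts 1.4.6-p4 on mm10 and GENCODE mouse release 13, counting exons of a gene where both ends mapped, at strand setting 1. The aligner is not given in the sources used here. Names came from GENCODE mouse release 21 (GRCm38, the assembly of mm10): 50376 of the 50600 identifiers matched without version and 224 did not. TPM was computed from the deposited counts and exon lengths over all genes. That length covers all annotated exons of a gene, so orders and ratios between genes depend on it. Which transcripts the cells made was not tested. A gene was called overlapped when an exon base lay in an exon on the other strand, as for 8189 genes (16.2%).

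The members, lists, pairs and motifs were chosen with earlier results of these data known. Any of the 38 genes, the pairs, overlapping genes and markers may be named, and of the further genes the 5 highest per list and those without a count. A few of these genes, and 1 pair of the design, are not reported here. Intervals are 95% exact (Poisson, or Clopper-Pearson for ratios of counts), also where a count was 0. They cover counting error only, since copies made by PCR are not independent molecules. Chi-square p-values measure departure from counting error between these libraries, which may be technical. Sign-flip p-values concern the direction of a ratio over the 3 libraries. The chi-square test used TMM-scaled library sizes (edgeR 4.0.16, R 4.3.3), a mean count of at least 10 and Benjamini-Hochberg adjustment over all genes tested, with the lowest library taken at 3 counts or more for the ratio. Ratios within pairs added 1 to TPM, which shrinks the ratio of low genes. Differences between libraries in log2 scaled counts added 0.5 counts. Python 3.11.15, numpy 2.4.6, pandas 2.3.3 and scipy 1.17.1 did the rest. On simulated counts, the chi-square test recovered 98 of 100 genes changed 4-fold in replicate 3 and 56 of 100 changed 2-fold, with 8 false calls among 11578 genes. The simulated counts were raised in that deep library and held Poisson error only. They cannot show how the test handles low counts in replicate 2 or spread beyond counting error.

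Alternatives left out each replicate and changed the TPM minimum, the pseudocount, medians against means, the scaling (DESeq2 1.42.0 size factors, library totals, TMM-scaled CPM per kilobase), the count minimum, the ratio and the genes used. Leaving out replicates, and dropping the ratio, on genes without overlap were added after the data were seen.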

Additional observations from a re-analysis of the deposited data

How the results depend on the processing

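The count of genes at 1 TPM was 37 or 38 without each replicate and with the median over libraries, and 34 at a minimum of 5 TPM; at 10 TPM it was 25 to 29. Genes called between libraries numbered 4, and 1 to 4 without each replicate, the 1 being Acss2 without replicate 2. They were 5 with DESeq2 size factors, 8 with library totals, 3 of 25 where the mean count reached 100, 4 with no filter and 21 with no minimum ratio. Among genes without overlap they were 3, and 0 to 3 without each replicate, the 0 being without replicate 2. The median of the mean levels was 20.3 TPM and 10.1 as TMM-scaled CPM per kilobase, a change of unit under which 30 of 38 levels moved by more than 1 SD. In replicate 3 the median against the other libraries was -0.19, and it was reversed to 0.02 over genes without overlap, while DESeq2 size factors (-0.16) and library totals (-0.44) kept its sign. The ratio of Abcg1 to Abca1 was reversed to -0.08 without replicate 2, and ranged from -0.08 to 1.14 over the replicates left out. The other 10 ratios kept their direction without each replicate, and 9 to 10 of the 11 pairs had the first gene higher in every library under each alternative. A pseudocount of 0.1 TPM moved 3 ratios by more than 1 SD, as did the TMM-scaled unit. Apart from the added sets of libraries and genes, the cause of these changes was not tested. No paired analysis was possible because the samples form 1 group. Depth limits replicate 2 most: 12 of the 38 genes had fewer than 5 counts there.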
